A study of Mus musculus with 24 samples.

Results

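The comparison asks how far the transcript response to a BRAF-V600E inhibitor differed between dendritic cells that carry the mutant kinase and dendritic cells that do not. For each gene, the log2 change with inhibitor in wild-type (WT) cells was subtracted from the log2 change with inhibitor in mutant cells, and the difference is called the interaction here. It was computed from the 12 total RNA libraries of the 24 libraries in the series, 3 in each of 4 groups. Of 54309 gene models, 13375 passed the filter on low counts and were tested, and 12110 of these are protein_coding. A negative interaction means that the inhibitor lowered a transcript more, or raised it less, in mutant cells than in WT cells.

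The cells were dendritic cells of mouse origin, cultured for 7 days with the growth factor GM-CSF from bulk bone marrow. The groups were WT cells without inhibitor, WT cells with inhibitor, mutant cells without inhibitor and mutant cells with inhibitor, and the mutant genotype is labelled LCH, for Langerhans cell histiocytosis. Inhibitor was given for 1 h before LPS and its name and dose are not given in the sources used here. All 4 groups then received LPS for 3 h, labelled as 100 ug/mL, and a pulse of cycloheximide at 100 ug/mL, so no group is unstimulated or free of cycloheximide. The promoter that drives the mutant allele and the number of mice behind each library are also not given in the sources used here.

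BRAF is a kinase that activates MEK, which activates ERK, and the V600E change makes BRAF active without an upstream signal. ERK induces immediate early transcription factors, growth-promoting genes such as cyclin D1, and its own inhibitors, among them the phosphatase DUSP6 and the Sprouty proteins. Compounds made against BRAF-V600E block the mutant kinase, but in cells with normal BRAF they can leave ERK signalling unchanged or raise it. In dendritic cells LPS acts through TLR4 and turns on cytokine genes, and ERK contributes to several of them.

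Library totals ran from 19046640 to 39792221 counts. The deposited total RNA columns end in the letters A, BD and C for WT and E, F and G for mutant cells. Each letter occurs once with and once without inhibitor. The letters are called pools here, a word the columns do not use. Both libraries of LCH pool G stood apart: they held a count for 37388 and 38431 genes against 16837 to 18406 in the other 10 libraries. Summed dendritic cell markers, 18 genes among them Itgax, Flt3 and Zbtb46, are given in CPM, the count scaled to library size. WT libraries had 5864 to 8557 CPM untreated and 5333 to 9326 CPM with inhibitor. LCH libraries had 8675 to 10080 CPM untreated and 10610 to 10860 CPM with inhibitor, above the WT range in each state. The highest count in a library was 127535 for H2-Ab1 and 125040 for Cst3, both among the 18 genes. It was 24729 for Itgax, 1242 for Zbtb46 and 325 for Flt3, so the sum says little of these last 2 genes. Braf (ENSMUSG00000002413.16, chromosome 6) had 22.7 to 32.5 CPM in untreated LCH and 33.6 to 36.5 CPM in untreated WT cultures, and its interaction was -0.02 (SE 0.20, edgeR adjusted p = 0.98). Gene counts cannot show a single-base change, so the level of Braf checks neither the mutation nor the labels.

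The inhibitor response differed between genotypes for 54 genes (0.404% of those tested), with a lower response in LCH for 47 (0.351%) and a higher response in LCH for 7 (0.0523%), by the edgeR quasi-likelihood test at an adjusted p under 0.05. Among protein_coding genes the test called 49 (0.405%), 42 lower (0.347%) and 7 higher (0.0578%). Cytokine, cyclin and ERK feedback genes such as Csf3, Lif, Dusp6 and Ccnd1 were among the 47. An unadjusted p under 0.05 was seen for 1626 genes, 12.2% of those tested. With the pool as a block, 2639 genes (19.7%) passed, 1321 higher (9.88%) and 1318 lower (9.85%), and all 54 genes were among them with the same sign. Without the block the p-values measure the spread between 3 pools a group. With it they measure the spread of the inhibitor effect between the pools of a genotype.

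The count of 54 changed with each library left out and mostly fell. It was 66 without the untreated WT library of pool A, with 29 of these among the 54. It was 32 without the inhibitor WT library of pool A and 23 without the inhibitor LCH library of pool G. It was between 7 and 15 when any other single library was left out. It was 23 without both libraries of LCH pool G, and 15 of these were among the 54. Without both libraries of LCH pool F no gene passed. Without both libraries of LCH pool E, WT pool BD or WT pool C the count was 9, 5 and 1. Without both libraries of WT pool A it was 72, with 31 of these among the 54. Of the protein_coding genes named here, Brf1, Dpep3, Dusp6, Lif, Rara and Ssh2 passed in all 12 fits with a single library left out, Csf3 in 10 and Ccnd3 in 9, whereas most of the other called genes passed in 4 or fewer.

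The 54 genes reached a different response in different ways. For 29 of the 47 lower genes the larger change was in LCH, and 28 of these were also called for the inhibitor effect within LCH and not within WT. For the other 18 the larger change was in WT, and 16 were called within WT and not within LCH. All 7 higher genes changed more in LCH and were called there. Within LCH the inhibitor effect was called for 99 genes (0.74%), 80 of them lower (0.598%), and within WT for 95 genes (0.71%), 90 of them higher (0.673%). Without the pool as a block no gene was called in both genotypes. With it, the inhibitor effect was called for 2302 genes (17.2%) in LCH and 2899 (21.7%) in WT. Serpinb2 and H2-Q4 were then among those called in both genotypes, each with the same sign.

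**Figure D1:**
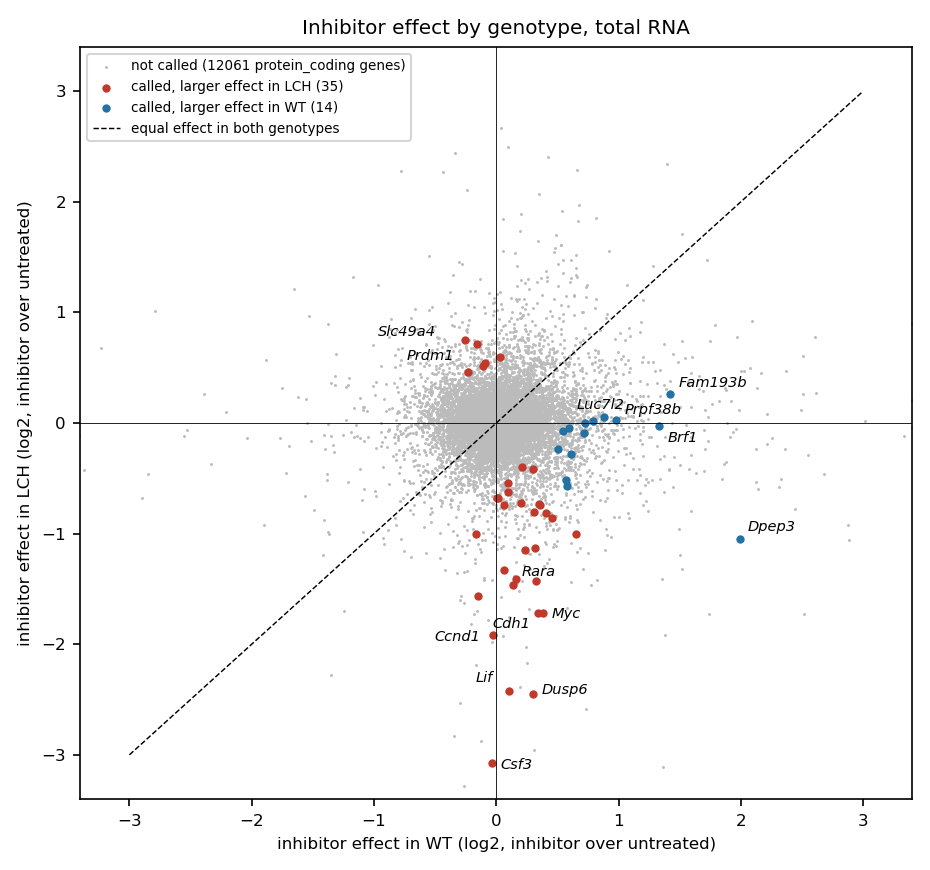
Inhibitor effect in WT (x axis) against that in LCH (y axis) for protein_coding genes, both as log2 of inhibitor over untreated. Red points are called genes with the larger effect in LCH (35), blue points those with the larger effect in WT (14), and 28 genes, the called gene Gm44502 among them, lie outside the plotted range. Red points run down the vertical axis to Csf3 at -3.07, and blue points run along the horizontal axis to Dpep3.

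Promoter sequence was read for the called protein_coding genes, to show what stands before the start of genes that moved together. RefSeq windows of the GRCm38.p6 build, from 250 bases before to 50 bases after a start, matched 17 of the 28 genes with the larger fall in LCH, 13 of the 14 with the larger change in WT and 5 of the 7 higher genes. Shown are called genes of each class, chosen with their matches known so that windows with and without one appear, with matches in capitals to the AP-1 motif TGANTCA or the ETS motif CCGGAA on either strand. Dusp6 (chr10:99262981-99263280, plus strand), Lif (chr11:4257318-4257617, plus strand) and the second listed start of Ccnd3 (chr17:47593217-47593516, plus strand) fell in LCH. Cdk11b (chr4:155624604-155624903, plus strand) rose in WT, and Prdm1 (chr10:44458699-44458998, minus strand) and Slc49a4 (chr16:35769321-35769620, minus strand) rose in LCH.
Dusp6: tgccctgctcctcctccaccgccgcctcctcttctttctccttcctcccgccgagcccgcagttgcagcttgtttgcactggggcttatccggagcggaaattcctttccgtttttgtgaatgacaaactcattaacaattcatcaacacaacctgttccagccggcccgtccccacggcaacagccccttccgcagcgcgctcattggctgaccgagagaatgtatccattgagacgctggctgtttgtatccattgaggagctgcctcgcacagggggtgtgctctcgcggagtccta
Lif: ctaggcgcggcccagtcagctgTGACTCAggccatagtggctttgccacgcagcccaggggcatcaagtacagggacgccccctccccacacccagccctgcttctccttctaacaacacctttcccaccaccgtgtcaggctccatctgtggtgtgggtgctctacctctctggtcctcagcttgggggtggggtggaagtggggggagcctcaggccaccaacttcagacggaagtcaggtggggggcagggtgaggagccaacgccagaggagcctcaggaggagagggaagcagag
Ccnd3: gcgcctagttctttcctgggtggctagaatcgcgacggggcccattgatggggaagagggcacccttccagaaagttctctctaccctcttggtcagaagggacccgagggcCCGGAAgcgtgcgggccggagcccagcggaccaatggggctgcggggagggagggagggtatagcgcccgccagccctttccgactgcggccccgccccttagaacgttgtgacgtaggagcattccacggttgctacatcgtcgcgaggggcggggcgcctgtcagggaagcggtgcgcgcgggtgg
Cdk11b: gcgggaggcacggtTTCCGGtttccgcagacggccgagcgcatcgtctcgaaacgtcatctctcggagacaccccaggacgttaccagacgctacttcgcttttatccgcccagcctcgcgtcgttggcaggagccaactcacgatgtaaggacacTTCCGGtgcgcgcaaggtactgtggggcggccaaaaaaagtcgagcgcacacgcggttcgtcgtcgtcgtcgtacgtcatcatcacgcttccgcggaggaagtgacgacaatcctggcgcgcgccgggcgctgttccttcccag
Prdm1: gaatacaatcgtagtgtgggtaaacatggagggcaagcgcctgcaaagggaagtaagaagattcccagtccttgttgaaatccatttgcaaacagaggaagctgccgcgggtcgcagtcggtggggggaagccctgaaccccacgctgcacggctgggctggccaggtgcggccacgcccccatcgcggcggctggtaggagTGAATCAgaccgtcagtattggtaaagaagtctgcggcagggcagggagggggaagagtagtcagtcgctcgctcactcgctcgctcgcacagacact
Slc49a4: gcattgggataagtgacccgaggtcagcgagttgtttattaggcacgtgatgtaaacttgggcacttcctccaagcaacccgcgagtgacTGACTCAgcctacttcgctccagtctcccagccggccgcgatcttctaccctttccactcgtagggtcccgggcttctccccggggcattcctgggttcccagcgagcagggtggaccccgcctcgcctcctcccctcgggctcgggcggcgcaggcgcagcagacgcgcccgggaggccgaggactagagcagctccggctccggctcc

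Lif, Prdm1 and Slc49a4 each hold an AP-1 match, Ccnd3 holds an ETS match, Cdk11b holds ETS matches at more than 1 place, and the Dusp6 window holds none of the motifs searched. The ETS motif occurred in 41.2% of the matched LCH-fall genes and in 38.5% of the matched genes with the larger change in WT, against 16.7% of 27025 genes. The CRE motif TGACGTCA occurred in 23.5% and 15.4% of them, against 2.03%. AP-1 occurred in 1 of the 17 LCH-fall genes, in none of the 13 and in 2 of the 5 higher genes, against 8.97%. The CArG box occurred in 1 of the 35 matched genes, against 1.81%. The 27025 genes are all those with a listed window, not only the 13375 genes tested, so the sets compared are unlike. The searched motifs do not overlap in sequence, and no test was made. A gene counts once however many starts it has, so a gene with more starts has more chances of a match.

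Of the 29 called genes with the larger fall in LCH, Csf3, Dusp6 and Lif fell most. Csf3 (ENSMUSG00000038067.3, chromosome 11) encodes G-CSF, the growth factor of neutrophils. In untreated LCH pools E, F and G it had 32.9, 61.5 and 52.4 CPM, and with inhibitor 5.44, 7.25 and 4.78 CPM. In WT pools A, BD and C it had 4.22, 5.01 and 7.60 CPM untreated and 5.08, 5.11 and 6.27 CPM with inhibitor. All 3 untreated LCH libraries were above the other 9, and those 9 overlapped. Its interaction was -3.04 (SE 0.38, edgeR adjusted p = 0.0094), and it was not called without the untreated WT library of pool BD (edgeR adjusted p = 0.064) or without the inhibitor WT library of pool C (edgeR adjusted p = 0.051).

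Lif (ENSMUSG00000034394.15, chromosome 11), a cytokine of the IL-6 family, showed the same order. LCH cultures had 121, 170 and 176 CPM untreated and 27.4, 37.8 and 22.0 CPM with inhibitor. WT cultures had 38.1, 29 and 32.0 CPM untreated and 38.5, 31.4 and 36.8 CPM with inhibitor. The untreated LCH libraries stood above all others, and the treated LCH libraries overlapped the WT libraries. The interaction was -2.53 (SE 0.28, edgeR adjusted p = 0.0042).

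Dusp6 (ENSMUSG00000019960.9, chromosome 10), the phosphatase that removes activating phosphates from ERK, had 40.8, 55.1 and 69.5 CPM in untreated LCH. With inhibitor these cultures had 9.25, 10.3 and 10.8 CPM. WT cultures had 5.21, 7.37 and 9.25 CPM untreated and 7.44, 8.43 and 11.04 CPM with inhibitor. The treated LCH values lay at the upper end of the WT values, and each WT pool had a higher value with inhibitor than without. The interaction of Dusp6 was -2.75 (SE 0.33, edgeR adjusted p = 0.0069), while the WT effect alone was 0.30 (SE 0.24, edgeR adjusted p = 0.63).

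The list of ERK feedback genes and ERK targets, 29 genes tested, had 5 members called lower and none called higher. The 5 were Dusp6, Lif, Myc, Ccnd1 and Phlda1, and 0.351% of all genes tested were called lower. Of the 29, 24 had a negative interaction, against 50% of all genes tested. Its members were chosen with earlier results of these data known, so these counts are no independent support. The median interaction of the list was -0.79, against 0.0002 over all genes tested, and its median inhibitor effect was -0.79 in LCH and 0.11 in WT. Over single pools the median effect was -0.92, -0.96 and -0.72 in LCH pools E, F and G and 0.01, 0.04 and 0.25 in WT pools A, BD and C. With the pool as a block 14 members were lower and 2, Lgals3 and Epha4, higher, against 9.85% and 9.88% of all genes tested. Sprouty genes, which restrain receptor signalling to ERK, were not called: Spry4 had -1.68 and Spry2 -0.90 (edgeR adjusted p = 0.41 and 0.62), and both passed under the block. Etv4, an ETS factor, had an interaction of 0.10 with similar effects of -0.99 in LCH and -1.09 in WT, and neither Etv5 nor Spry1 passed in either fit.

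The cyclin genes Ccnd1 and Ccnd3 were called, whereas none of the 35 genes on the cell cycle list was. Ccnd1 (ENSMUSG00000070348.6, chromosome 7), cyclin D1, had 161, 139 and 146 CPM in untreated LCH and 37.7, 40.7 and 39.6 CPM with inhibitor. In WT it had 14.6, 14.1 and 8.99 CPM untreated and 14.9, 13.5 and 8.45 CPM with inhibitor. Treated LCH cultures thus kept a level above every WT library, unlike Csf3, Lif and Dusp6. The interaction of Ccnd1 was -1.89 (SE 0.29, edgeR adjusted p = 0.029).

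Ccnd3 (ENSMUSG00000034165.17, chromosome 17), cyclin D3, had 80.1, 63.0 and 59.8 CPM in untreated LCH and 29.1, 25.7 and 21.3 CPM with inhibitor. WT cultures had 39.4, 39.4 and 45.1 CPM untreated and 45.0, 41.2 and 52.2 CPM with inhibitor. Here the treated LCH libraries were below all WT libraries and the untreated LCH libraries above them. The interaction was -1.57 (SE 0.20, edgeR adjusted p = 0.0095), and the adjusted p was 0.065, 0.072 and 0.054 without the inhibitor LCH library of pool F, the untreated WT library of pool BD and the inhibitor WT library of pool C. Myc, a transcription factor of cell growth, had 28.8, 20.7 and 15.2 CPM in untreated LCH, 8.06, 6.09 and 5.42 CPM in treated LCH and 4.62 to 8.14 CPM in the 6 WT libraries. Its interaction was -2.10 (SE 0.36, edgeR adjusted p = 0.037), and Odc1, the first enzyme of polyamine synthesis, had -0.83 (SE 0.15, edgeR adjusted p = 0.046).

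Rara (ENSMUSG00000037992.17, chromosome 11), the retinoic acid receptor alpha, had 16.5, 16.6 and 13.5 CPM in untreated LCH and 5.72, 6.23 and 4.97 CPM with inhibitor. WT cultures had 9.68, 8.75 and 8.99 CPM untreated and 10.1, 10.2 and 9.85 CPM with inhibitor. Like Ccnd3, it went from above all WT libraries to below them. The interaction of Rara was -1.60 (SE 0.18, edgeR adjusted p = 0.0042). Ssh2, a phosphatase that activates the actin regulator cofilin, had 30.6, 26.9 and 27.2 CPM in untreated LCH, 14.5, 12.5 and 11.8 CPM in treated LCH and 8.19 to 11.8 CPM in WT. Its interaction was -1.45 (SE 0.16, edgeR adjusted p = 0.0042).

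Other called genes with the larger fall in LCH had roles in adhesion, transcription and signalling. Cdh1, the adhesion protein E-cadherin, had an interaction of -2.06 (SE 0.34, edgeR adjusted p = 0.034) and was the only called member of 21 LCH lesion genes tested. Egr3, an immediate early transcription factor, had -1.75 and was the only called gene of 24 immediate early genes. Of these 24, 15 had a negative interaction, against 50% of all genes tested, and the median was -0.33. The share called lower was 0.351% over all genes tested. Cd300lb, an activating myeloid receptor, had -1.65 and Phlda1 -1.41. Signalling genes among the calls were Sh2b3 (-0.93), an adaptor that restrains cytokine receptors, and the kinases Prkd3 (-0.69) and Ptk2b (-0.64).

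**Figure D2:**
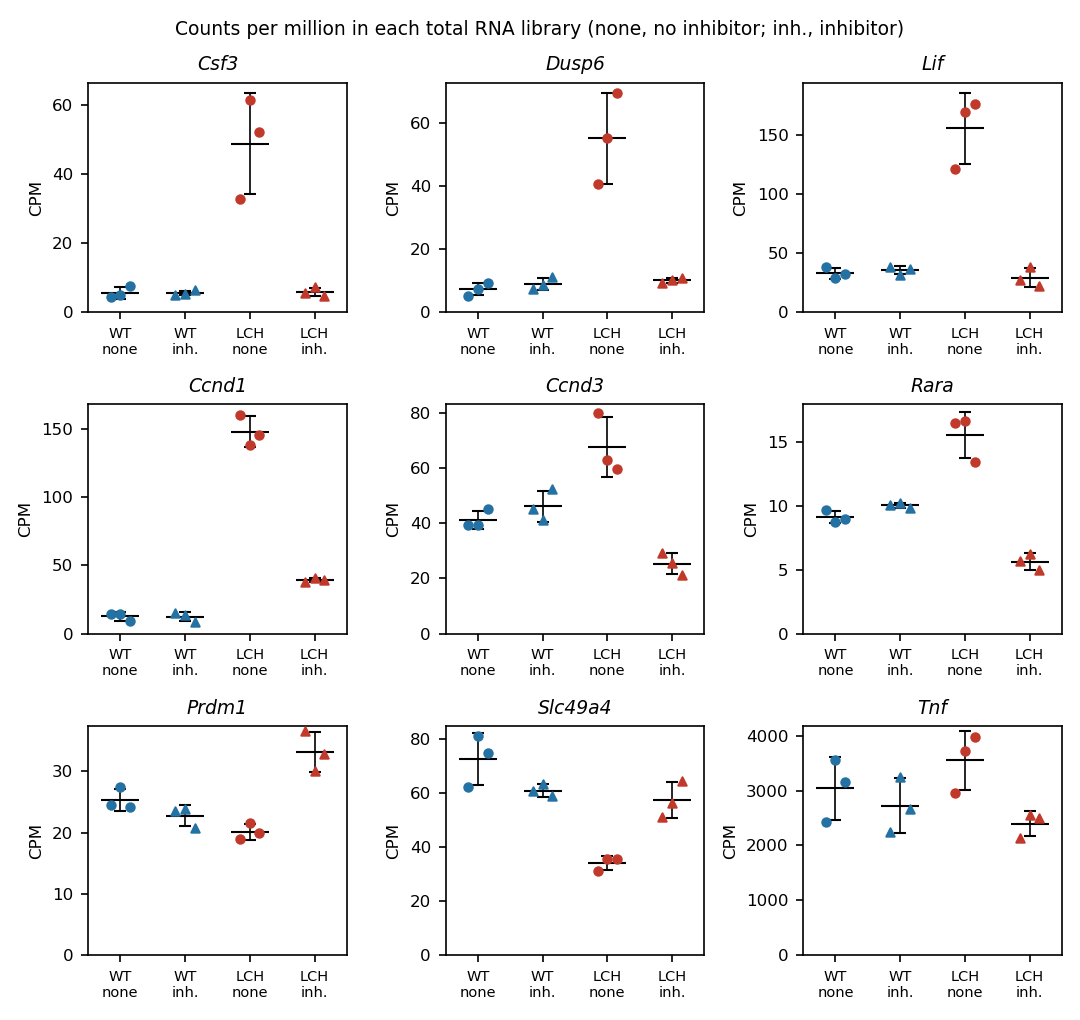
CPM of 9 genes in each of the 12 total RNA libraries (points, 3 pools a group; bars, mean and SD; none, no inhibitor; inh., inhibitor). In the top row the untreated LCH cultures stand alone; Ccnd3 and Rara pass from above to below WT; Prdm1 and Slc49a4 rise in LCH; Tnf overlaps between genotypes.

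Among 35 cytokine genes tested, Csf3 and Lif were called lower, against 0.351% of all genes tested, and Lif is also on the list of ERK targets. Of the 35, 24 had a negative interaction, against 50% of all genes tested, and the list's median interaction was -0.32. Csf2, which encodes GM-CSF, had 27.2, 36.5 and 20.7 CPM in untreated LCH, 5.31, 6.44 and 2.79 CPM in treated LCH and 1.19 to 2.01 CPM in WT. Its interaction of -2.24 (SE 0.45) had an edgeR adjusted p of 0.069, and of 5.6e-06 under the block. Osm, another IL-6 family cytokine, had -1.54 (edgeR adjusted p = 0.082), and Il23a, a subunit of IL-23, had -1.10 (edgeR adjusted p = 0.085). Areg, a ligand of the EGF receptor, had -2.02 (edgeR adjusted p = 0.16). These 3 passed under the block, where 12 cytokine genes were lower and 5 higher, against 9.85% and 9.88% of all genes tested.

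Egr1, the immediate early factor often used as a readout of ERK, had 68.6, 108 and 106 CPM in untreated LCH and 21.7, 38.4 and 23.7 CPM in treated LCH. WT libraries held 6.85 to 11.4 CPM, below all LCH libraries. Its interaction was -1.86 (SE 0.36, edgeR adjusted p = 0.063; 0.0017 under the block). Cish, a feedback inhibitor of STAT5 signalling, had -0.63 (edgeR adjusted p = 0.063; 1.5e-05 under the block).

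Tnf (ENSMUSG00000024401.15, chromosome 17), the cytokine the series is about, had 2956, 3716 and 3981 CPM in untreated LCH and 2135, 2557 and 2500 CPM with inhibitor. WT cultures had 2423, 3559 and 3151 CPM untreated and 2251, 3247 and 2668 CPM with inhibitor. The level was lower with inhibitor in each of the 6 pools, and the groups of the 2 genotypes overlapped. The interaction was -0.41 (SE 0.26, 95% interval -0.98 to 0.17, edgeR adjusted p = 0.57). Under the block it was -0.40 with an edgeR adjusted p of 0.0021. The inhibitor effect on Tnf was -0.57 in LCH (SE 0.19) and -0.16 in WT (SE 0.19), and neither was called without the block (edgeR adjusted p = 0.26 and 0.77).

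Of the 18 lower genes with the larger change in WT, 16 rose with inhibitor there by the test. The WT rise of Hps3 and Slc25a38 was not called (edgeR adjusted p = 0.060 and 0.12), and their LCH effects were -0.51 and -0.57, both called under the block. Brf1 (ENSMUSG00000011158.9, chromosome 12), a subunit of the RNA polymerase III initiation factor TFIIIB, had the smallest p of all genes. WT cultures had 22.9, 20.2 and 19.5 CPM untreated and 50.6, 55.2 and 52.0 CPM with inhibitor. LCH cultures had 38.7, 41.2 and 37.4 CPM untreated and 37.0, 36.5 and 41.6 CPM with inhibitor. The LCH libraries all lay between the untreated and the treated WT libraries. The interaction was -1.36 (SE 0.13, edgeR adjusted p = 0.0033), with an effect of 1.33 in WT and -0.03 in LCH.

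Luc7l2 (ENSMUSG00000029823.17, chromosome 6), a U1 snRNP-associated protein, had 133, 110 and 111 CPM in untreated WT and 189, 234 and 190 CPM in treated WT. In LCH it had 154, 154 and 152 CPM untreated and 160, 148 and 156 CPM with inhibitor. Its interaction was -0.78 (SE 0.14, edgeR adjusted p = 0.048). Prpf38b, a splicing factor, had -0.95 (SE 0.18, edgeR adjusted p = 0.048) and Zcchc7, a subunit of the nuclear TRAMP complex that marks RNA for decay, had -0.82 (SE 0.15, edgeR adjusted p = 0.045).

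Cdk11b, a kinase linked to transcription and splicing, had 75.2, 61.4 and 64.3 CPM in untreated WT and 108, 118 and 107 CPM in treated WT. LCH libraries held 78.1 to 86.7 CPM in both states. The interaction was -0.73 (SE 0.13, edgeR adjusted p = 0.042), and the call was lost when rRNA-type and mitochondrial genes were left out of scaling. Fam193b had 12.3, 9.15 and 10.1 CPM in untreated WT and 26.0, 31.4 and 27.1 CPM in treated WT, against 18.1 to 25.3 CPM in LCH. Its interaction was -1.16 (SE 0.18, edgeR adjusted p = 0.029). Ppp1r12c, a regulatory subunit of protein phosphatase 1, had -0.64.

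**Figure D3:**
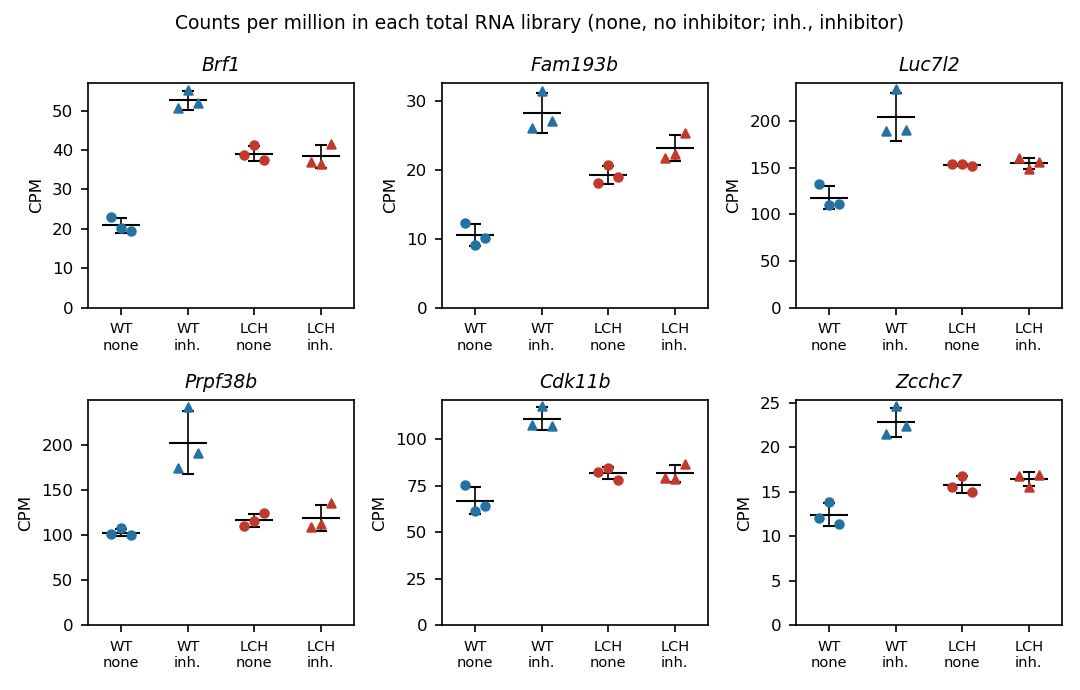
CPM of 6 genes with the larger inhibitor effect in WT, in each of the 12 total RNA libraries (points, 3 pools a group; bars, mean and SD; none, no inhibitor; inh., inhibitor). Treated WT cultures lie above all untreated WT cultures for each gene, and LCH cultures with and without inhibitor lie between or near them.

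Dpep3 (ENSMUSG00000031898.10, chromosome 8), a membrane dipeptidase, moved in opposite directions. WT cultures had 3.87, 1.84 and 2.77 CPM untreated and 10.3, 13.9 and 9.80 CPM with inhibitor. LCH cultures had 10.02, 11.6 and 12.5 CPM untreated and 5.81, 5.25 and 5.42 CPM with inhibitor. LCH was above WT without inhibitor and below it with inhibitor, although the treated WT and untreated LCH libraries overlapped. The interaction was -3.04 (SE 0.32, edgeR adjusted p = 0.0042), and the fall in LCH alone was not called (edgeR adjusted p = 0.060).

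Gene models that are not protein_coding were also called. A130071D04Rik, whose biotype is TEC, a model still without experimental support, had 0.99, 2.53 and 1.59 CPM in untreated WT, 14.4, 17.96 and 22.3 CPM in treated WT and 1.37 to 2.83 CPM in LCH, with an interaction of -3.96 (SE 0.43, edgeR adjusted p = 0.0042). Snhg20, a snoRNA host gene, had -2.01 (SE 0.32, edgeR adjusted p = 0.029). Of 14 other nuclear and snoRNA-host noncoding RNAs none was called, and 13 had a negative interaction, against 50% of all genes tested. The median of these 14 was -0.68, and their median effect was 0.43 in WT and -0.09 in LCH. Neat1, the RNA scaffold of paraspeckles, had 504, 358 and 281 CPM in untreated WT, 870, 1730 and 1040 CPM in treated WT and 418 to 580 CPM in LCH. Its interaction of -1.64 had an edgeR adjusted p of 0.11, and of 0.098 under the block. The share of counts on lncRNA genes was 0.35 to 0.416% in untreated and 0.511 to 0.661% in treated WT, and 0.473 to 0.728% over all LCH libraries. The part of this share in the single-gene results was not tested.

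The 7 genes with a higher response in LCH rose there, and none was called within WT, where 5 had an effect below 0. Under the block the WT effects of Slc49a4 (-0.25) and Arl5a (-0.23) passed. Prdm1 (ENSMUSG00000038151.14, chromosome 10), the transcriptional repressor BLIMP-1, had 18.9, 21.6 and 19.95 CPM in untreated LCH and 36.5, 30.0 and 32.9 CPM with inhibitor. WT cultures had 24.5, 27.5 and 24.1 CPM untreated and 23.5, 23.9 and 20.7 CPM with inhibitor. Untreated LCH libraries were at the lower end of the WT range or below it and treated LCH libraries above it. The interaction was 0.88 (SE 0.15, edgeR adjusted p = 0.034).

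Slc49a4 (ENSMUSG00000022848.9, chromosome 16), a membrane transporter, had 31.3, 35.5 and 35.8 CPM in untreated LCH and 51.3, 56.6 and 64.7 CPM with inhibitor. WT cultures had 62.2, 81.3 and 74.8 CPM untreated and 60.9, 63.4 and 58.9 CPM with inhibitor. Untreated LCH libraries were below all WT libraries, and of the treated LCH libraries 2 were below the treated WT libraries and the third above them. The interaction was 1.00 (SE 0.16, edgeR adjusted p = 0.032). Adora2a, an adenosine receptor, had 0.63, Arl5a, a small GTPase of the Golgi, 0.70, Stard5, a sterol carrier, 0.62, and C9orf72, a protein of autophagy and endosome traffic, 0.57. The protein_coding model Gm44502 had no count in untreated LCH and 1.59, 2.00 and 3.02 CPM in treated LCH, at least 50.9-fold higher than 3 counts over the untreated group, with 0.77 to 2.58 CPM in WT.

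Several lists with mostly positive interactions held no called gene without the block. Of all genes tested, 50% had a negative interaction, and 9.88% were higher and 9.85% lower under the block. Of 23 dendritic cell maturation genes 17 had a positive interaction, with a median of 0.22, and under the block 9 were higher and 1 lower. Ccr7, the receptor that guides dendritic cells to lymph nodes, had 0.93 (edgeR adjusted p = 0.42; 5.3e-07 under the block), with effects of 1.12 in LCH and 0.19 in WT. Socs2, a feedback inhibitor of cytokine signalling, had 0.82 (edgeR adjusted p = 0.34; 7.3e-06 under the block). The sign of that list's median was not stable: with a library or pool left out it ran from -0.03 to 0.51. Cell cycle inhibitors and survival genes had a positive interaction in 15 of 18, with a median of 0.29, and 9 were higher and 2 lower under the block.

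Lysosome and autophagy genes had a positive interaction in 24 of 26 (median 0.31; effect 0.16 in LCH and -0.21 in WT), and 15 were higher under the block. Cholesterol synthesis genes had one in 20 of 23, with a median of 0.28, and 10 were higher under the block. All 78 ribosomal protein genes had a positive interaction, with a median of 0.17. Under the block 6 of them were higher, a share below the 9.88% of all genes tested. Of 13 mitochondrial genome mRNAs 12 had a negative interaction, with a median of -0.50. The RAF, MEK, ERK and RAS genes themselves, 28 tested, were divided evenly, 14 negative and 14 positive, with a median of -0.01.

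**Figure D4:**
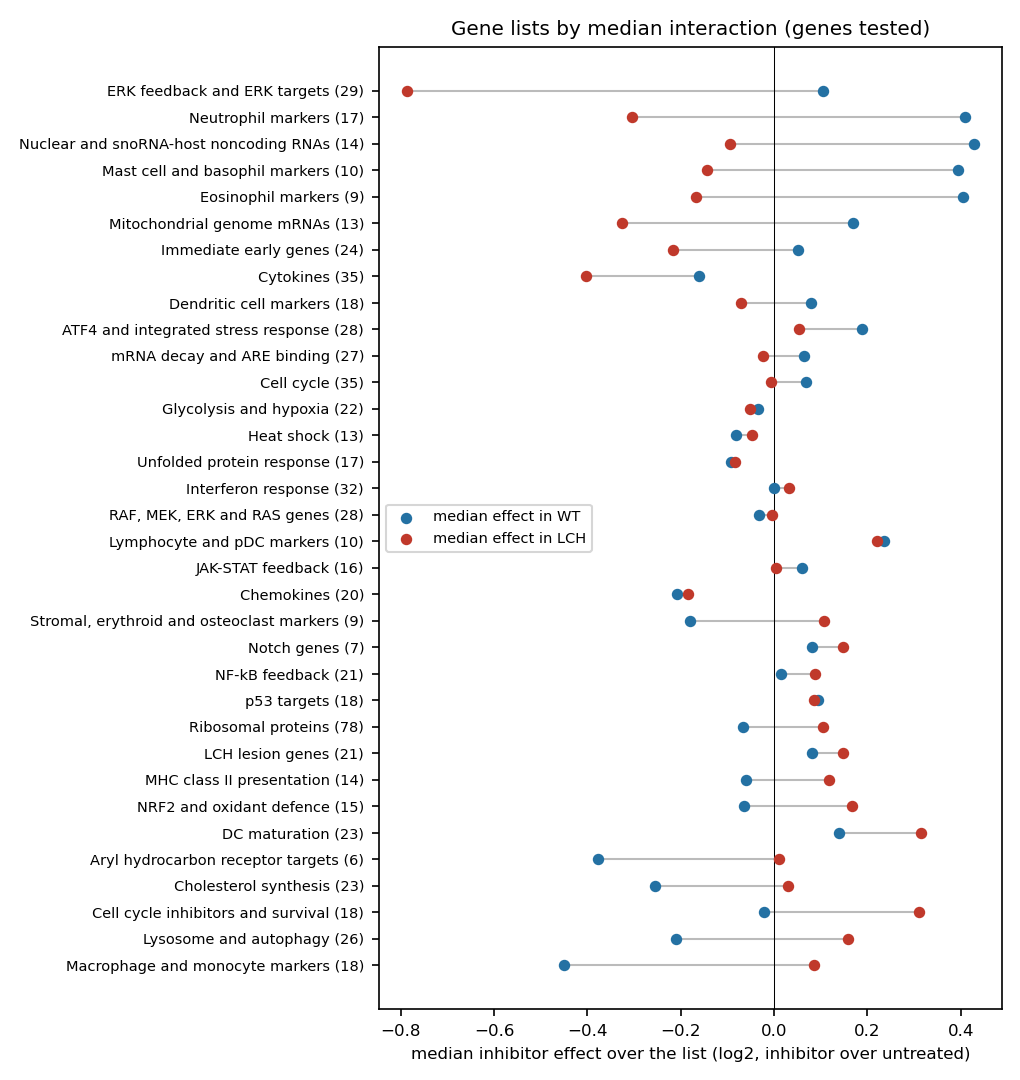
Median inhibitor effect over each gene list in WT (blue) and in LCH (red), as log2 of inhibitor over untreated, ordered by the median interaction with the number of genes tested in brackets. ERK feedback and target genes are lowest in LCH at -0.79 with WT at 0.11; marker lists of granulocytes and macrophages have the larger median effect in WT.

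Among markers of granulocytes, mast cells and macrophages Hdc alone was called without the block, while most members of each list had interactions of 1 sign. Over all genes tested, 50% had a negative interaction. In bulk RNA fewer cells of a type and less RNA per cell cannot be told apart. Of 17 neutrophil markers 16 had a negative interaction (median -0.70; effect -0.30 in LCH and 0.41 in WT). Under the block 9 were lower and 1 higher, against 9.85% and 9.88% of all genes tested. Their summed level was 2097 to 4471 CPM in untreated and 3035 to 5887 CPM in treated WT, and 729 to 1074 and 616 to 958 CPM in LCH. Lcn2, a neutrophil granule protein, had -1.05 (edgeR adjusted p = 0.34; 6.0e-07 under the block).

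Of 18 macrophage and monocyte markers 15 had a positive interaction (median 0.44; effect 0.09 in LCH and -0.45 in WT), and under the block 10 were higher and 1 lower. Their summed level was 12030 to 21040 CPM in untreated and 8288 to 14750 CPM in treated WT, and 8211 to 11060 and 9050 to 12690 CPM in LCH. Lyz2, lysozyme, had 0.96 (edgeR adjusted p = 0.28; 1.6e-06 under the block), and Ctss, a lysosomal protease of antigen processing, had 0.86 (edgeR adjusted p = 0.30; 1.6e-05 under the block). Eosinophil markers had a negative interaction in 8 of 9 (median -0.61; 3 lower under the block), with 405 to 736 CPM in untreated and 540 to 954 CPM in treated WT, and 41.1 to 97.0 and 38.9 to 88.5 CPM in LCH. Mast cell and basophil markers had one in 8 of 10 (median -0.66; 5 lower under the block), with 219 to 358 and 281 to 491 CPM in WT and 171 to 217 and 141 to 180 CPM in LCH. Hdc, the histamine-forming enzyme, was the called member at -1.10 (SE 0.19, edgeR adjusted p = 0.041), and Gata2, a mast cell transcription factor, had -1.08 (edgeR adjusted p = 0.060; 4.7e-06 under the block). Over all genes tested, 9.88% were higher and 9.85% lower under the block. No marker of the neutrophil, eosinophil or tested mast cell lists was at 0 in all libraries, and the part of these markers in the other results was not tested.

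The inhibitor effect averaged over both genotypes was called for 78 genes (0.583%), 43 higher (0.321%) and 35 lower (0.262%), and 23 of the 78 were also called for the interaction. Only 17 of the 78 had the same sign in both genotypes and an unadjusted interaction p of at least 0.05, 11 higher and 6 lower. Across all 13375 genes the LCH and WT effects, which share no library, had a Pearson correlation of 0.00403, and of 0.0821 over 9018 genes with a mean of at least 5 CPM. These are descriptions over genes that share libraries. The average count was 2912 (21.8%) under the block, and it lay between 4 and 190 with a single library left out, highest without the untreated WT library of pool A and lowest without the inhibitor LCH library of pool E.

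Serpinb2, an inhibitor of urokinase, had the largest average fall of these 17 genes. LCH cultures had 1375, 1929 and 1666 CPM untreated and 919, 1267 and 919 CPM with inhibitor. WT cultures had 937, 1070 and 1061 CPM untreated and 533, 690 and 582 CPM with inhibitor. Treated libraries were below untreated ones in each genotype without overlap. The average effect was -0.72 (SE 0.12, edgeR adjusted p = 0.026), and the interaction was 0.09. Without the block the effect was not called within LCH or within WT (edgeR adjusted p = 0.11 and 0.069). The average passed in 3 of the 12 fits with a single library left out. Myo1e, a myosin of the cell cortex, averaged -0.44, Arl5b, a small GTPase, -0.42, and Mex3c, an RNA-binding ubiquitin ligase, -0.30. In the same 12 fits Myo1e passed in 3, Arl5b in 1 and Mex3c in 0.

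Shared rises were H2-Q4, an MHC class I gene with near-identical relatives whose reads the counting could have divided differently, at 0.50 (SE 0.09, edgeR adjusted p = 0.030), and Hmg20b, a chromatin protein, at 0.51 (SE 0.09, edgeR adjusted p = 0.030). Rnf167, a ubiquitin ligase, averaged 0.50, Sema7a, a semaphorin on leukocytes, 0.47, and Paf1, a subunit of the polymerase-associated factor complex, 0.36. Of the 12 fits with a single library left out, Rnf167 passed in 5, H2-Q4 and Sema7a in 3 each, and Hmg20b and Paf1 in 2 each. H2-Q4 had 151, 166 and 187 CPM in untreated LCH and 207, 215 and 274 CPM in treated LCH. In WT it had 183, 151 and 176 CPM untreated and 244, 253 and 243 CPM with inhibitor. Treated cultures were above untreated cultures in both genotypes. Sema7a passed for the interaction under the block (edgeR adjusted p = 0.0094), with a value of 0.36.

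Polysome RNA of LCH pools E, F and GH, the last set beside pool G of total RNA, gave another reading of the LCH side. No gene of 10757 was called for the inhibitor effect there (0%, edgeR), with 289 (2.69%) at an unadjusted p under 0.05, 29 called with the pool as a block and 1 called without the inhibitor library of pool G. Of the 29 genes with the larger fall in LCH total RNA, 28 were also below 0 in polysome RNA, against 49.1% of 10667 genes tested in both fractions. Of the 17 tested genes with the larger change in WT, 8 were below 0, and of the 6 tested higher genes none was. The values are from separate libraries of lysates with a shared culture, so they are no further replicate of the treatment.

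Csf3 had 18.1, 35.0 and 34.6 CPM in untreated and 6.81, 2.84 and 2.96 CPM in treated polysome RNA, an effect of -2.76 (edgeR adjusted p = 0.13). Lif had 36.4, 45.3 and 65.2 CPM untreated and 10.6, 11.96 and 10.2 CPM treated, an effect of -2.17 (edgeR adjusted p = 0.078). Dusp6 had 12.5, 12.8 and 18.4 CPM untreated and 3.28, 4.68 and 3.68 CPM treated, an effect of -1.92. Prdm1 had 2.19, 2.62 and 3.10 CPM untreated and 5.64, 10.4 and 7.43 CPM treated, an effect of 1.56 (edgeR adjusted p = 1.00). Untreated and treated libraries did not overlap for any of these 4 genes, which were printed with their values known. The share of all genes without such overlap in polysome RNA was not counted. The WT polysome libraries were not used, because few of their counts fell outside rRNA-type genes.

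**Figure D5:**
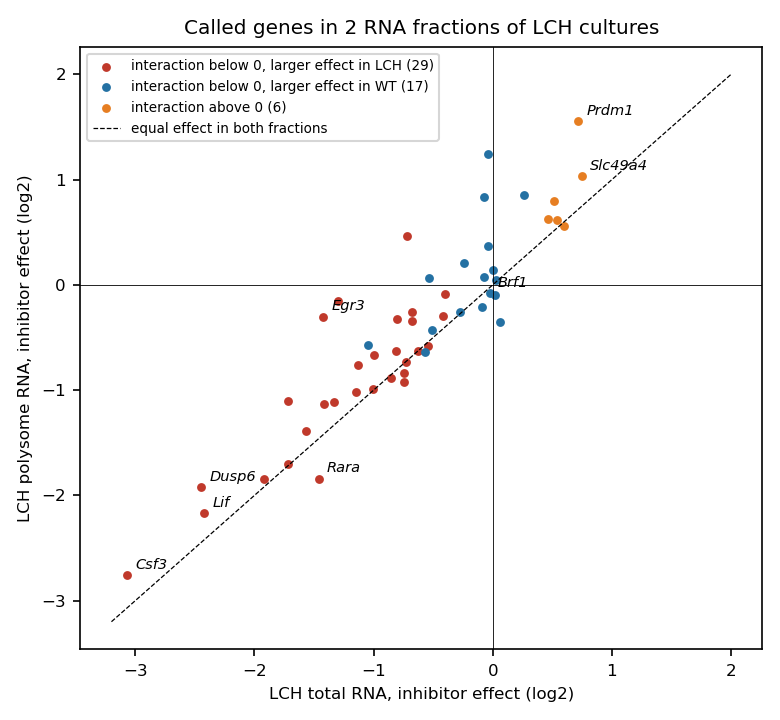
Inhibitor effect in LCH total RNA (x axis) against LCH polysome RNA (y axis), both log2 of inhibitor over untreated, for called genes tested in both fractions. Genes with the larger fall in LCH (red, 29) lie below 0 in both fractions except Sh2b3, from Csf3 near the dashed line of equal effect to Egr3, at -1.43 in total and -0.30 in polysome RNA; genes with the larger change in WT (blue, 17) lie around 0, and the 6 higher genes (orange) lie above 0.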

How the data were processed

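Raw read counts per gene model were analysed for 12 total RNA libraries and 6 LCH polysome libraries. The authors deposited these counts, and the submitters' processing notes name Salmon and DESeq2 without versions and the build mm9. The deposited file names no build, so its coordinates are not printed. The authors also deposited log2 values after the rlog transform, per the file headers, which served as an alternative. Groups were read from the genotype, inhibitor and fraction that each column name gives, beside a pool letter and not the replicate number of the labels.

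Counts were fitted with edgeR 4.0.16 in R 4.3.3 (TMM scaling, filterByExpr with a minimum count of 10, robust quasi-likelihood) over 4 groups of 3 libraries. P-values were two-sided, with the Benjamini-Hochberg adjustment made across the 13375 genes, and an adjusted p under 0.05 was called. The standard error (SE) is of a log2 difference and was derived from the test statistic. Levels are given as CPM, counts scaled to TMM-adjusted library sizes, and all values per library are levels on this scale. A gene low in 1 group could pass through another. The steps were tested on simulated data.

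Pairing by pool was checked from same-pool deviations from the group means: the correlations were 0.524, 0.346 and 0.735 for LCH pools E, F and G and 0.421, 0.372 and 0.114 for WT pools A, BD and C. The highest values for an untreated library with a treated library of another pool were 0.37, 0.321 and -0.519 in LCH. In WT these were -0.0624, -0.0274 and 0.0605, so LCH pool F and WT pool C exceeded other pools only slightly. The check was made on the same-pool correlations. All exceed 0.1, and the pools were taken to pair the libraries with and without inhibitor in the block fit only. The main fit left this pairing out, because the labels do not say that such libraries share animals. So a gene not called in the main fit, such as Tnf, is not shown to respond alike in both genotypes. The pairing comes from the column letters and this check, not from a label that names animals. WT and LCH share no pool.

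The named genes are Tnf, Braf, up to 12 protein_coding genes with the largest called rise and fall of the interaction and a mean of at least 5 CPM, up to 8 with a shared rise and fall, and the members with the smallest p of each list. Others, and the genes printed out of these, were chosen after their values were seen. The comparison, the 34 lists and their members were chosen with earlier results of these data known. Alternatives were DESeq2 1.42.0, its size factors, no filter, limma 3.58.1 on the rlog values, protein_coding genes alone, scaling without rRNA-type and mitochondrial genes, the pool block and leaving out each library or pool.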

Additional observations from a re-analysis of the deposited data

Results flagged for a closer look

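The interaction is itself a test of a difference between genotypes, and 54 genes passed it. Values are interactions on the log2 scale from edgeR, each with an adjusted p under 0.05. Among genes with the larger fall in LCH, Csf3 had -3.04, Dusp6 -2.75, Lif -2.53, Myc -2.10 and Cdh1 -2.06. Ccnd1 had -1.89, Egr3 -1.75, Cd300lb -1.65, Rara -1.60, Ccnd3 -1.57, Ssh2 -1.45 and Phlda1 -1.41. Smaller falls were those of Hdc at -1.10, Sh2b3 at -0.93, Odc1 at -0.83, Prkd3 at -0.69 and Ptk2b at -0.64.

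Among genes with the larger change in WT, A130071D04Rik had -3.96, Dpep3 -3.04, Snhg20 -2.01, Brf1 -1.36 and Fam193b -1.16. Prpf38b had -0.95, Zcchc7 -0.82, Luc7l2 -0.78, Cdk11b -0.73 and Ppp1r12c -0.64. The higher genes were Slc49a4 at 1.00, Prdm1 at 0.88, Arl5a at 0.70, Adora2a at 0.63, Stard5 at 0.62 and C9orf72 at 0.57.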

How the results depend on the processing

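The count of genes called for the interaction was 54 as reported, 2639 with the replicate block for pool, 341 with DESeq2, 269 without the filter on low counts, 47 with DESeq2 size factors, 39 with limma on rlog values (26 of these among the 54), 51 over protein_coding genes and 46 without rRNA-type and mitochondrial genes. The average effect gave 2912 with the replicate block, 573 with DESeq2 and 374 without the filter. The LCH effect gave 2302, 409 and 342 under the same alternatives and 57 with limma, and the WT effect gave 2899, 468 and 299. The polysome effect gave 29 with the block. The Tnf interaction was -0.40 with the block, where it passed, and it kept its sign and did not pass under the other alternatives run. Leaving out a library or a pool gave 0 to 72 genes for the interaction, 0 to 190 for the average, 3 to 172 for LCH, 1 to 244 for WT and 0 to 1 for polysome RNA, and -0.53 to -0.26 for Tnf. A fit that leaves 2 libraries in a group assumes that they vary like the other groups. Braf changed sign, at 6e-04 with limma on rlog values and between -0.16 and 0.10 with libraries or pools left out. No call of a named gene was lost under the block or under DESeq2, the alternatives that called many more genes. Other alternatives lost calls of named genes, counted over the interaction and the average effect. These were 18 with limma on rlog values, 5 without the filter, 4 with DESeq2 size factors and 4 without rRNA-type and mitochondrial genes. The causes of these shifts were not tested.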

Other observations

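Lists of genes linked to the LPS response had median interactions near 0, with members on both sides. Over all genes tested, 50% had a negative interaction. Of 20 chemokine genes 10 had a negative and 10 a positive interaction (median 0.04), of 32 interferon response genes 17 were negative (median -0.02), and of 21 NF-kB feedback genes 14 were positive (median 0.09). Of 16 JAK-STAT feedback genes 8 were positive (median 0.02). No gene of these lists was called without the pool block, with which 5 chemokine genes were higher and 3 lower and 8 interferon genes were higher and 5 lower. Under the block 3 JAK-STAT feedback genes were higher and 5 lower, and 4 NF-kB feedback genes were higher and 2 lower, against 19.7% of all genes in either direction. MHC class II presentation genes were positive in 11 of 14 (median 0.20) and oxidant defence genes of NRF2 in 12 of 15 (median 0.22).

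Genes of mRNA decay and AU-rich element binding, which control the half-life of cytokine transcripts such as Tnf, were negative in 20 of 27 (median -0.13), and none was called without the block. Cell cycle genes were negative in 23 of 35 (median -0.10) and ATF4 and integrated stress response genes in 19 of 28 (median -0.14). Glycolysis and hypoxia genes were negative in 13 of 22 (median -0.07), and no gene of these lists was called without the block. Under the block 7 glycolysis and hypoxia genes were lower, against 9.85% of all genes tested. The unfolded protein response (17 genes, median -0.03), p53 targets (18, median 0.09), heat shock (13, median -0.07), Notch genes (7, median 0.09) and aryl hydrocarbon receptor targets (6, median 0.25) also held no called gene. Dendritic cell markers were negative in 11 of 18 (median -0.17), lymphocyte and pDC markers in 5 of 10 (median -0.0008) and stromal, erythroid and osteoclast markers in 3 of 9 (median 0.08), none of them called. Of 21 LCH lesion genes 13 had a positive interaction (median 0.19). Under the block 6 of them were higher and 5 lower, against 9.88% and 9.85% of all genes tested.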
